A study of Homo sapiens with 4 samples.

Results

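The 47 genes described here encode the centromere, the kinetochore and the spindle checkpoint, with the mitotic kinases and spindle factors that act beside them. They were listed by symbol and matched to 60483 gene identifiers by Ensembl identifier through GENCODE 29. All 47 were found, and all 47 had enough counts to be tested, out of 20325 genes tested. They lie on 20 chromosomes. The list was not chosen by measured values of single genes, but it was drawn up with earlier results of these data known.

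RNA was sequenced from C4-2, an established human prostate cancer line derived from LNCaP cells that grows with little androgen. The control group (C4-2-CON) had 2 libraries of cells kept without enzalutamide, and the resistant group (C4-2-ENZ) had 2 libraries of cells kept with it, each for 1 month. Enzalutamide is an antiandrogen given in prostate cancer. The labels do not tell if the control cells received vehicle, or which cells received the FGF-2 that the medium text names, and both groups are the same line at the same stated passages. Drug exposure and resistance cannot be told apart, and as separate cultures are not stated, each p-value speaks only of library-to-library spread, possibly technical. The libraries held between 25589724 and 45033885 counts on genes, and 55.41% to 74.4% of HTSeq records were assigned to no gene (20.32% to 36.95% were not aligned), the 2 highest of these shares being in the control libraries.

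The centromere is marked by nucleosomes that hold CENP-A in place of histone H3, and new CENP-A is loaded after each mitosis. On this chromatin sits the kinetochore, an inner layer that touches the centromere and an outer layer that grips microtubules. Unattached kinetochores make an inhibitor of the anaphase-promoting complex, so that anaphase waits for the last chromosome. Most of these genes are transcribed mainly in late S phase, G2 and mitosis, and they are commonly read as a sign of dividing cells.

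In resistant cells, 42 of the 47 genes fell (89.4%), 3 rose (MAD1L1, MIS18A and CENPF) and 2 were not called (CENPC and PMF1), by edgeR's quasi-likelihood F test at a Benjamini-Hochberg adjusted p below 0.05. Over all genes tested, 31.7% were lower and 33% higher. Of the members, 21 were lower by 2-fold or more (44.7%), against 10.1% of all genes tested. The median log2 fold change (resistant over control) was -0.896 over the members, which is 1.86-fold lower, and -0.0162 over all genes tested. Summed over the members, CPM (counts scaled to the TMM-adjusted size of each library) came to 3653 and 3595 in the control libraries, replicate 1 first, and to 1927 and 1941 in the resistant ones. The control sums lay well above the resistant ones, with replicates close together. In these bulk samples, fewer dividing cells and less of each RNA per dividing cell cannot be told apart. When libraries were scaled by total count, the median of all genes was 0.172, 41 members were lower and 5 higher (CENPC and PMF1 were then called higher), INCENP was not called, and 64.4% of all called genes were higher, against 51% with TMM. With that scaling, 15 members were lower by 2-fold or more, against 21 with TMM. The small falls were then smaller still: CENPO had a log2 fold change of -0.21, KNL1 -0.26, SPC24 -0.27, TPX2 -0.18 and CENPE -0.16, all still called, while MIS18A had 0.45 and CENPF 0.32.

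**Figure D1:**
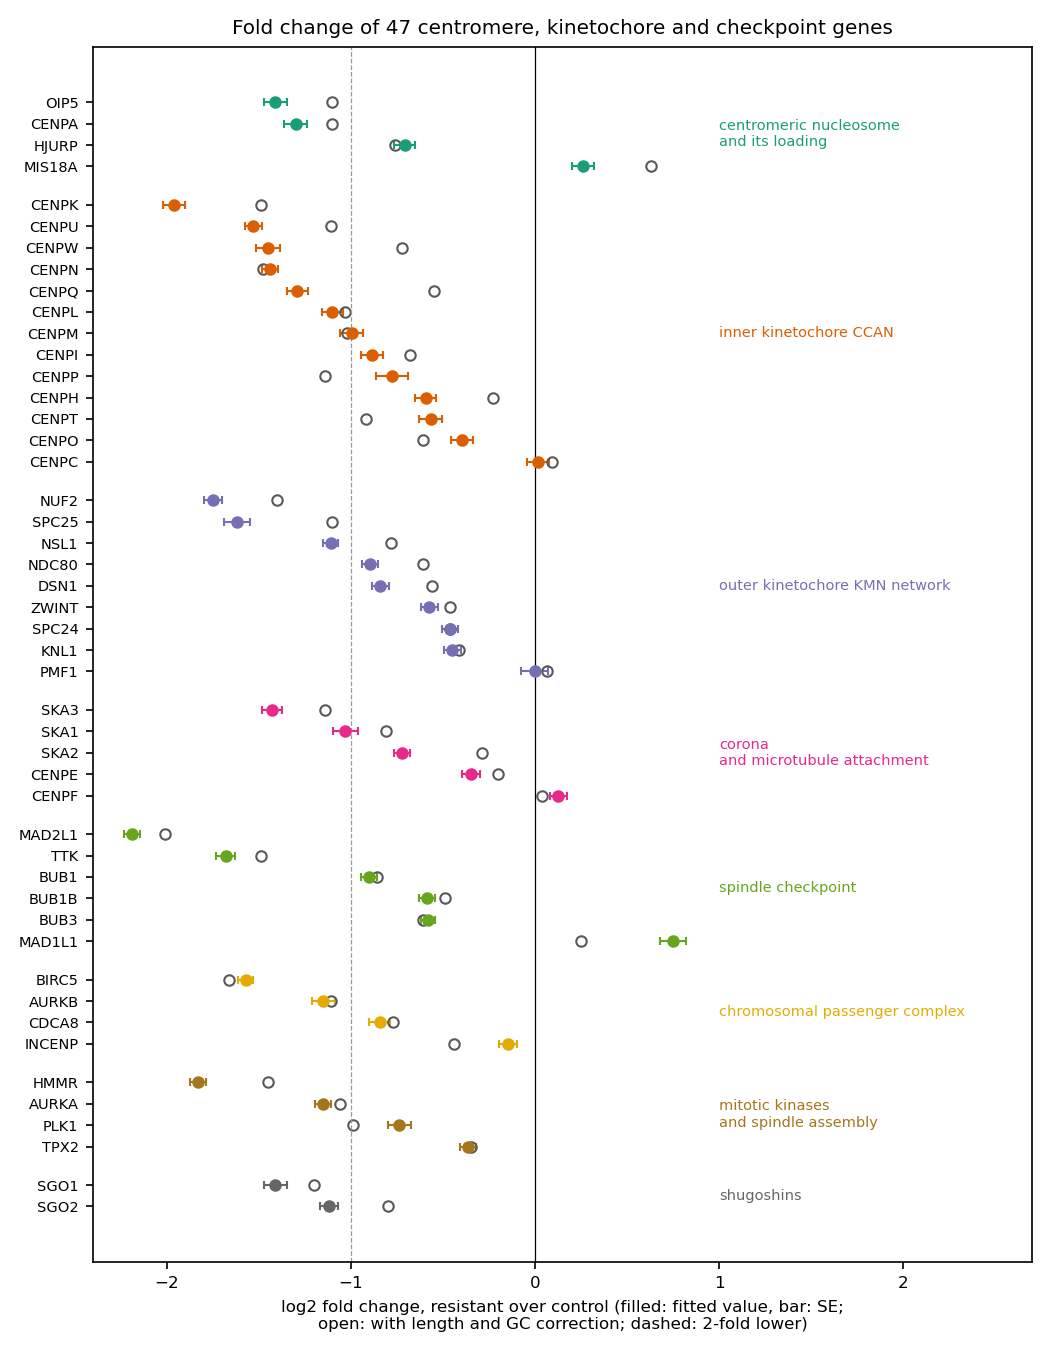
Log2 fold change of each of the 47 genes (resistant over control) by role group, with the standard error as a bar, and the value after a correction for exonic length and GC content as an open circle. Filled points run from -2.19 for MAD2L1 to 0.75 for MAD1L1, and 21 genes lie at or left of the dashed line at 2-fold lower.

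Many promoters of late cell cycle genes carry a cell cycle genes homology region (CHR), a short element near the start that the DREAM and B-MYB complexes bind, often downstream of CCAAT boxes bound by NF-Y. RefSeq promoter windows of GRCh38.p14, 250 bases before to 50 after the start, were at hand for 37 of the 47 genes. The other 10 are CENPM, BIRC5, MIS18A, BUB3, TPX2, CENPH, AURKA, CENPL, TTK and KNL1. TTTGAA or TTCGAA, searched on both strands, was in 22 of the 37 windows (59.5%) and in 16.6% of all 27305 windows. CCAAT, on either strand, was in 24 (64.9%) against 35.7%. Both kinds were in 16 (43.2%) against 6.58%. TTCCCGC or TTGGCGC, forms of the E2F site, were in 8 (21.6%) against 9.33%. By size of the change, a CHR match was in 11 of 17 genes lower by 2-fold or more, in 9 of 16 lower by less, and in 2 of 4 that rose or were not called. In the 250 bases before the start alone, 10 of the 37 windows held a CHR match (27.0%) against 14.6% of all, because matches that span or follow the start are then left out. By size of the change, that shorter window held one in 3 of the 17 genes lower by 2-fold or more (17.6%) and in 6 of the 16 lower by less (37.5%), so the order of these shares depends on the window. A match describes letters in the window and is not a measured binding site.

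The lines that follow show the 30 bases around the CHR match (in capitals) for the 10 genes that fell by 2-fold or more and have a match away from the window ends, in order of their fall, and for CENPC, which was not called. Each is written 5′ to 3′ on the strand of its gene, from RefSeq, GRCh38.p14. They are shown because the list was not drawn up by these letters, and because CENPC holds the same ones. The match is not shared by all: CENPK, with a log2 fold change of -1.96, has none in its window. Such matches are also in NDC80, BUB1, CDCA8, PLK1, HJURP, BUB1B, ZWINT and INCENP, which fell by less than 2-fold and are not shown.
MAD2L1 (chr4:120066807-120066836, minus strand): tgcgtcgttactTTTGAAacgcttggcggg
HMMR (chr5:163460598-163460627, plus strand): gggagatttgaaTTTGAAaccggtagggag
NUF2 (chr1:163321958-163321987, plus strand): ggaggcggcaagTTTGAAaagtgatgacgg
SPC25 (chr2:168890416-168890445, minus strand): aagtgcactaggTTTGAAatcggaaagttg
CENPW (chr6:126340120-126340149, plus strand): gttggcggcggaTTCGAAcgttcggactga
CENPN (chr16:81007205-81007234, plus strand): gcaattggtggcTTTGAAggcgcggcgagc
SKA3 (chr13:21176538-21176567, minus strand): ccggcgccgagaTTCAAActagtggcggga
SGO1 (chr3:20186192-20186221, minus strand): gaggcggaaaatTTCGAAtgtggcggcggt
OIP5 (chr15:41332573-41332602, minus strand): gcctggcgtgtaTTCGAAaggaaggcgccg
CENPA (chr2:26786026-26786055, plus strand): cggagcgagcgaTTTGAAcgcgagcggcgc
CENPC (chr4:67545576-67545605, minus strand): tgtgtctccgggTTCAAAcccaggcacagg

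The matches in SPC25, SKA3 and SGO1 begin 3 bases before the start and that in OIP5 lies 2 bases after it, whereas that in CENPC lies 90 bases before. In CENPN, 4 bases separate the CHR match from a CCAAT box on the other strand. HMMR holds a second match directly in front of the one in capitals. CENPF, which rose, has a CHR match only near the end of its window. Its 250 bases before the start (chr1:214602945-214603194, plus strand, GRCh38.p14) are shown because they hold 3 CCAAT boxes, in capitals, at 94, 58 and 33 bases before the start, in a gene whose level was not lower; the middle box is on the other strand.
CENPF: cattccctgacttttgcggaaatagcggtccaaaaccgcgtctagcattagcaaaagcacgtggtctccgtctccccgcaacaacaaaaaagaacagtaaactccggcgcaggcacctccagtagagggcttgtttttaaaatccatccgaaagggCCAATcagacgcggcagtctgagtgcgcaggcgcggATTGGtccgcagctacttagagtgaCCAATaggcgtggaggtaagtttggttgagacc

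The first role group makes and places the centromeric nucleosome. Of its 4 genes, 3 fell and MIS18A rose, with a median log2 fold change of -1. OIP5, the Mis18-beta subunit that licenses the centromere for new CENP-A, was at 30.8 and 28.6 CPM in the control libraries (replicates 1 and 2, here and throughout in this order) and at 11.2 and 11.1 in the resistant ones (log2 fold change -1.41, SE 0.0642, edgeR adjusted p = 3.66e-09). MIS18A, the other Mis18 subunit of the list, was at 17.7 and 18.5 CPM in control and 21.6 and 21.9 in resistant libraries (0.26, SE 0.0607, edgeR adjusted p = 0.00253). So these partners of a single complex went in opposite directions, and neither gene's groups overlapped. CENPA itself was at 33.0 and 35.2 CPM in control and 13.8 and 14.0 in resistant libraries, 2.46-fold lower (SE of the log2 value 0.0616, edgeR adjusted p = 5.14e-09). Its chaperone HJURP fell less, to 61.2% of its control mean. Of the exonic bases of OIP5, 38.0% are shared with the antisense gene OIP5-AS1. The strand setting used in counting is not known, so it is not known how reads on the shared bases were assigned or left out.

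The constitutive centromere-associated network (CCAN) is the inner kinetochore, built of CENP-C and several subcomplexes. Of its 13 genes here, 12 fell, 6 of them by 2-fold or more, and the median log2 fold change was -0.995. CENPK, a subunit of the CENP-H/I/K/M complex, had the largest fall of the group, with 43.0 and 42.2 CPM in control and 10.7 and 11.2 in resistant libraries (log2 fold change -1.96, SE 0.0609, edgeR adjusted p = 1.81e-10). Its partners in that complex had smaller log2 fold changes, -0.59 for CENPH, -0.88 for CENPI and -0.99 for CENPM. CENPU, of the CENP-O/P/Q/U complex and the highest of the group per kb of exon, went from 144 and 138 CPM in control to 49.6 and 48.1 in resistant libraries (-1.53, SE 0.0459, edgeR adjusted p = 1.45e-10). As fitted, its binding partner CENPQ had a log2 fold change of -1.29, while CENPO (-0.40) and CENPP (-0.77) of the same complex fell less. With the length and GC correction this order changed, to -1.14 for CENPP, -1.11 for CENPU, -0.61 for CENPO and -0.55 for CENPQ.

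CENPN, which reads the CENP-A nucleosome, was at 132 and 133 CPM in control and 49.9 and 47.5 in resistant libraries, a log2 fold change of -1.44, and its partner CENPL had -1.10. The histone-fold pair CENPT and CENPW had -0.57 and -1.45. CENPC, the scaffold that ties CENP-A nucleosomes to the outer kinetochore, was at 18.3 and 19.2 CPM in control and 19.1 and 18.9 in resistant libraries, so that the groups overlapped (log2 fold change 0.02, SE 0.0611, edgeR adjusted p = 0.834). Under total count scaling CENPC was called higher, at 0.20 on the log2 scale (edgeR adjusted p = 0.0128). Reads of CENPN, CENPO, CENPP, CENPT and CENPU are less certain, since between 11.7% and 39.5% of their exonic bases overlap other genes.

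The outer layer is the KMN network: KNL1, which docks checkpoint proteins, the MIS12 complex, which bridges to the inner layer, and the NDC80 complex, which binds microtubules. Of 9 genes, 8 fell, 3 of them by 2-fold or more, with a median log2 fold change of -0.84. NUF2, of the microtubule-binding end of the NDC80 complex, was at 93.5 and 92.8 CPM in control and 26.5 and 28.8 in resistant libraries (3.38-fold lower, SE of the log2 value 0.0479, edgeR adjusted p = 7e-11). NDC80, its direct partner, was at 81.3 and 79.7 CPM in control and 43.1 and 43.4 in resistant libraries, 1.86-fold lower. At the other end of the rod, SPC25 was 3.08-fold lower and SPC24 1.38-fold. So within this complex of 4 subunits, NUF2 and SPC25 fell more than NDC80 and SPC24.

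In the MIS12 complex, NSL1 went from 134 and 134 CPM in control to 61.6 and 62.2 in resistant libraries (-1.11) and DSN1 had a log2 fold change of -0.84. PMF1, the other subunit of the list, was at 18.1 and 19.6 CPM in control and 19.9 and 17.8 in resistant libraries, with overlapping groups (log2 fold change -0.00105, SE 0.0727, edgeR adjusted p = 0.992), and was called higher under total count scaling (0.19, edgeR adjusted p = 0.0484). Of its exonic bases, 23.3% are shared with the readthrough gene PMF1-BGLAP. ZWINT, which binds KNL1 and was the highest of the group per kb, was at 95.5 and 99.9 CPM in control and 64.6 and 66.8 in resistant libraries (-0.57). Among the genes of the network called lower, KNL1 had the smallest fall, with 104 and 99.4 CPM in control and 74.1 and 75.2 in resistant libraries (-0.45).

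**Figure D2:**
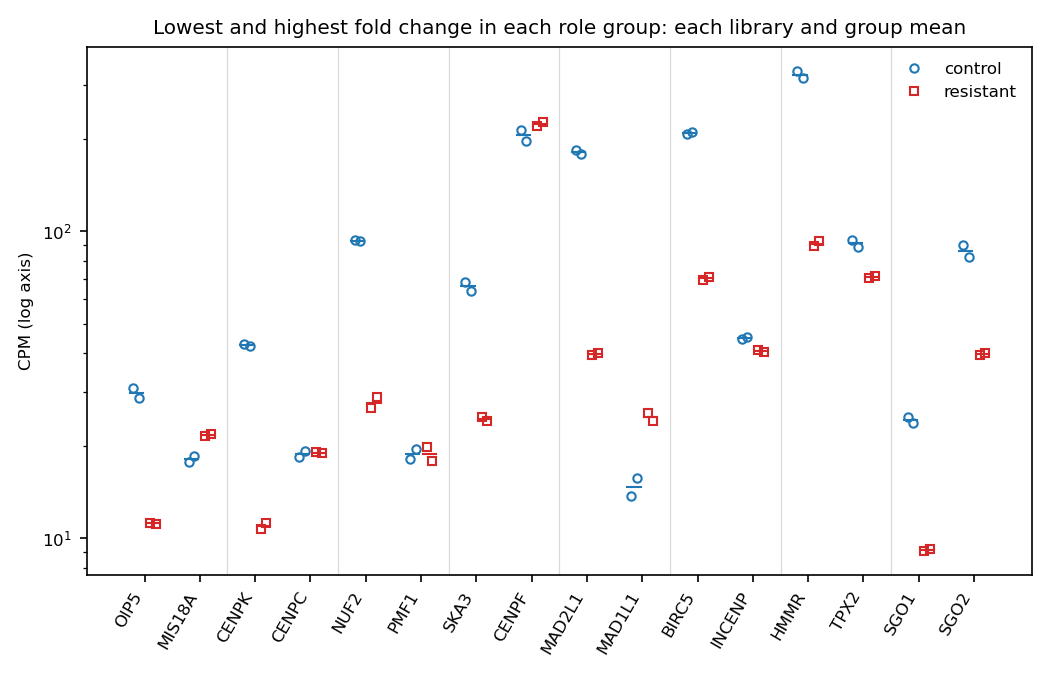
CPM in each of the 4 libraries (log axis) for the gene with the lowest and the gene with the highest log2 fold change in each role group, with a line at each group mean. Control and resistant points overlap for CENPC and PMF1, MIS18A, CENPF and MAD1L1 lie higher in resistant libraries, and the others lie lower there, though under total count scaling CENPC and PMF1 were called higher and INCENP turned direction.

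The corona and the SKA complex form the outermost contact with microtubules. Of 5 genes, 4 fell and CENPF rose, with a median log2 fold change of -0.722. SKA3 had 68.6 and 63.9 CPM in control and 24.9 and 24.1 in resistant libraries (log2 fold change -1.43, SE 0.0533, edgeR adjusted p = 7.15e-10). SKA1, whose product binds microtubules, had -1.03. SKA2, the highest of the group per kb in control cells (CENPF in resistant cells), went from 97.7 and 92.8 CPM to 57.97 and 57.5 (-0.72). CENPE, a kinesin that carries chromosomes along microtubules, fell by less, with a log2 fold change of -0.35. CENPF, a large corona protein, was at 214 and 197 CPM in control and 221 and 227 in resistant libraries, a small rise whose groups did not overlap (0.13, SE 0.045, edgeR adjusted p = 0.0277). The rise was no longer called with the length and GC correction (0.036, edgeR adjusted p = 0.312), nor without resistant replicate 1 (0.16, edgeR adjusted p = 0.0768) or resistant replicate 2 (0.12, edgeR adjusted p = 0.17). It was not called either with a filter of 1 CPM (0.079, edgeR adjusted p = 0.142) or over protein-coding genes only (0.037, edgeR adjusted p = 0.451).

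The spindle checkpoint genes held both ends of the range as fitted. MAD2L1, which encodes the MAD2 protein that captures CDC20, was at 184 and 179 CPM in the control libraries and at 39.5 and 40.0 in the resistant ones. This is 4.57-fold lower, the largest fall of the 47 genes (log2 fold change -2.19, SE 0.0436, edgeR adjusted p = 1.11e-11). MAD1L1, which encodes the MAD1 protein that anchors MAD2 at kinetochores, was at 13.7 and 15.7 CPM in control and 25.5 and 24.1 in resistant libraries, the largest rise (0.75, SE 0.0731, edgeR adjusted p = 2.63e-06). With the length and GC correction the rise was 0.25, and that of MIS18A, at 0.63, was then the larger. TTK, the kinase MPS1 that starts checkpoint signalling, went from 87.8 and 80.6 CPM in control to 26.0 and 26.4 in resistant libraries (-1.68). The kinase BUB1 had a log2 fold change of -0.90, BUB1B (BUBR1) -0.59 and their adaptor BUB3 -0.58. BUB3 was the highest of the group per kb in control cells, at 259 and 268 CPM, and was at 179 and 173 in resistant libraries. Of these 6 genes 5 fell, 2 of them by 2-fold or more, and the median was -0.744.

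The chromosomal passenger complex corrects wrong attachments through the kinase Aurora B. As fitted, all 4 of its genes fell, 2 by 2-fold or more, with a median log2 fold change of -0.996. BIRC5 (survivin), which brings the complex to the centromere, was at 208 and 211 CPM in control and 69.5 and 71.0 in resistant libraries (log2 fold change -1.57, SE 0.041, edgeR adjusted p = 5.03e-11). AURKB, the kinase itself, had -1.15, and CDCA8 (borealin) -0.84. INCENP, the scaffold that holds the others, was at 44.7 and 45.4 CPM in control and 41.1 and 40.4 in resistant libraries. This was the smallest fall called among the 47 (-0.14, SE 0.0477, edgeR adjusted p = 0.0193), and its direction turned under total count scaling (0.043). INCENP was not called by the DESeq2 Wald test (-0.14, DESeq2 adjusted p = 0.129) or with no count filter (-0.049, edgeR adjusted p = 0.695). With a replicate block it was not called (-0.14, edgeR adjusted p = 0.0567), nor without control replicate 2 (-0.12, edgeR adjusted p = 0.0622), resistant replicate 1 (-0.15, edgeR adjusted p = 0.135) or resistant replicate 2 (-0.12, edgeR adjusted p = 0.227), whereas with the length and GC correction it was -0.44.

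Among the mitotic kinases and spindle assembly factors, all 4 genes fell, with a median log2 fold change of -0.943. HMMR, a spindle pole protein that also binds hyaluronan and the highest of all 47 genes per kb in control cells, was at 333 and 316 CPM in control and 89.3 and 92.7 in resistant libraries (-1.83, SE 0.0433, edgeR adjusted p = 2.61e-11). AURKA, the centrosomal Aurora kinase, had -1.15, and PLK1, which acts from mitotic entry to cytokinesis, -0.74. TPX2, the activator of Aurora A, fell least, from 93.6 and 89.1 CPM in control to 70.3 and 71.5 in resistant libraries (-0.37). The shugoshins guard centromeric cohesin, and as fitted both fell by more than 2-fold. SGO1 was at 24.9 and 23.8 CPM in control and 9.08 and 9.19 in resistant libraries (-1.41), and SGO2 at 89.9 and 82.4 CPM in control and 39.4 and 40.0 in resistant libraries (-1.12). The fall of SGO2 was short of 2-fold with the length and GC correction (-0.80) and under total count scaling (-0.93). Of the exonic bases of SGO1, 17.7% are shared with its antisense gene SGO1-AS1, so its reads are uncertain without strand.

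Because the falls differed in size, the order of the genes by level per kb of exon changed between the groups. In control cells HMMR was first with 82.4 CPM per kb, followed by BIRC5 with 54.8 and CENPU with 47.8. In resistant cells ZWINT was first with 27.6, then HMMR with 23.1 and BUB3 with 21.2. MAD2L1 went from rank 9 to rank 30 (tied with CENPE), on levels of 31.6 and 6.92 CPM per kb, and CENPF from rank 23 to rank 6, on 17.6 and 19.2. The lowest level in both groups was that of CENPP, with 1.24 and 0.72 CPM per kb. No test was made between genes, so neighbours in this order are not shown to differ.

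Ratios of partner genes within a library do not depend on how libraries are scaled. The ratio of MAD2L1 to MAD1L1 counts per kb was 16.9 and 14.4 in the control libraries and 1.95 and 2.09 in the resistant ones, a 7.72-fold change (4.79-fold with the length and GC correction). For OIP5 to MIS18A it was 2.43 and 2.16 in control and 0.727 and 0.709 in resistant libraries, so that their order by counts per kb differed between the groups. Which RNA of that pair was the more abundant is uncertain, as 38.0% of the exonic bases of OIP5 are shared with OIP5-AS1 and no test was made between genes. BIRC5 to INCENP went from 5.45 and 5.44 to 1.98 and 2.06, and CENPK to CENPH from 0.446 and 0.481 to 0.175 and 0.184. NUF2 to NDC80 went from 1.23 and 1.25 to 0.659 and 0.71. In none of these 5 pairs did the libraries of the groups overlap. This was not particular to them: of all 22 pairs looked at, 20 had both control libraries above, 1 had both resistant libraries above, and 1 overlapped. The gene written first sets the direction of a ratio, so the split by direction reflects how the pairs were written. How often ratios of other gene pairs separate the groups was not counted. Among all genes tested, 31.7% were lower and 33% higher.

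The ratio of BUB1B to BUB3 was 0.66 and 0.611 in control and 0.616 and 0.649 in resistant libraries, with overlapping groups. PMF1 to DSN1 went up, from 0.321 and 0.335 to 0.609 and 0.564, DSN1 having fallen while PMF1 was not called. CENPW to CENPT depended on the correction, with a log2 change of the ratio of -0.88 without it and 0.20 with it. The 22 pairs were written down after the fold changes were known, so their values are a description, with no test.

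**Figure D3:**
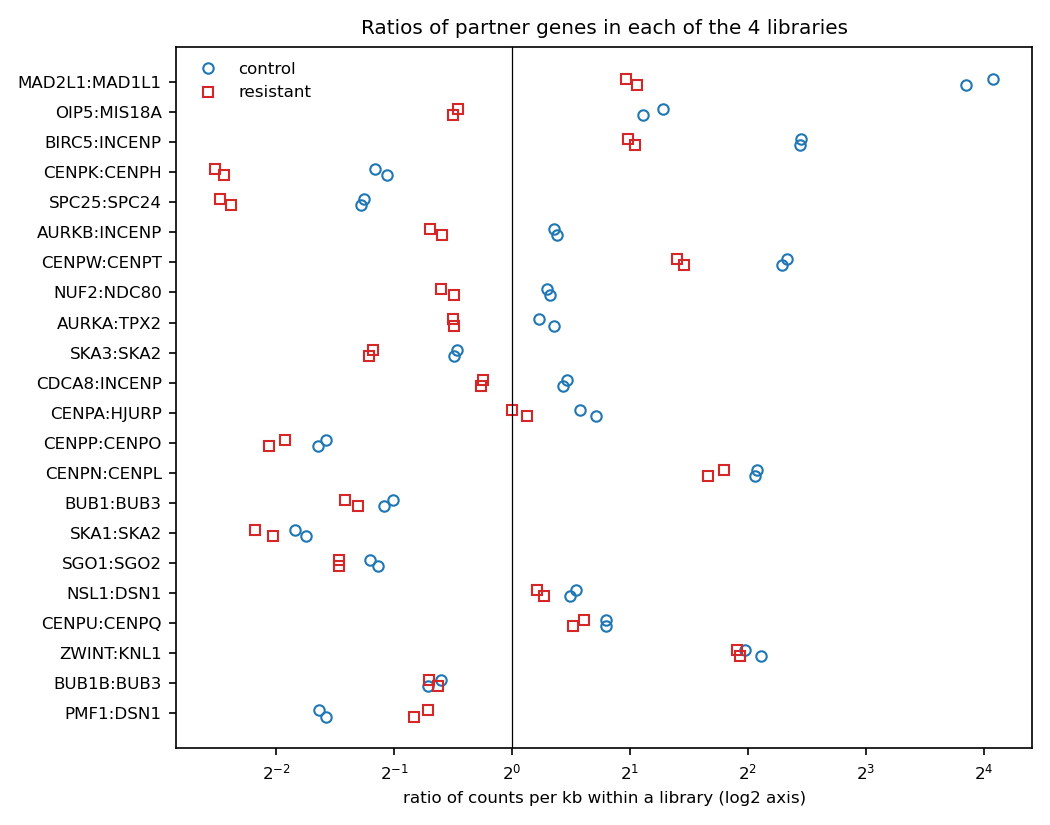
Ratio of counts per kb of exon for 22 pairs of partner genes in each of the 4 libraries, on a log2 axis, ordered by the change between groups. MAD2L1 to MAD1L1 shifts the most, 7.72-fold, BUB1B to BUB3 overlaps between groups, and PMF1 to DSN1 is the pair that is higher in resistant libraries.

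Transcript length and GC content moved with the fold change. The 14 members with a longest transcript under 2000 bases had a median log2 fold change of -1.29, the 23 between 2000 and 4000 bases -0.90, and the 10 longer ones -0.52. Protein-coding genes as a whole went the same way, from -0.22 over 2370 short ones to 0.05 over 5399 and 0.21 over 6173 long ones. Across the 47 genes the log2 fold change and the log2 length had a Pearson r of 0.311 and a Spearman rho of 0.352, and with GC content 0.404 and 0.368. These are across genes, which share the same 4 libraries and are not independent replicates.

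A correction took a smooth trend on exonic length (the union of exons) and GC content out of each library. It brought the r with the longest transcript, which is another measure of length, to 0.123 and with GC content to 0.0866. With it, 42 members were still lower, the same 42 genes, 18 of them by 2-fold or more, and the median was -0.78, against 32% of all genes lower and 7.01% by 2-fold or more. The medians in the 3 length classes were then -1.06, -0.78 and -0.61. Several sizes moved by more than 1.5 times. CENPH went from -0.59 to -0.23, CENPQ from -1.29 to -0.55, CENPW from -1.45 to -0.72, CENPE from -0.35 to -0.20 and SKA2 from -0.72 to -0.29. CENPO went from -0.40 to -0.61, CENPT from -0.57 to -0.92, INCENP from -0.14 to -0.44, MIS18A from 0.26 to 0.63 and MAD1L1 from 0.75 to 0.25. The part of library makeup in these trends was not tested.

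**Figure D4:**
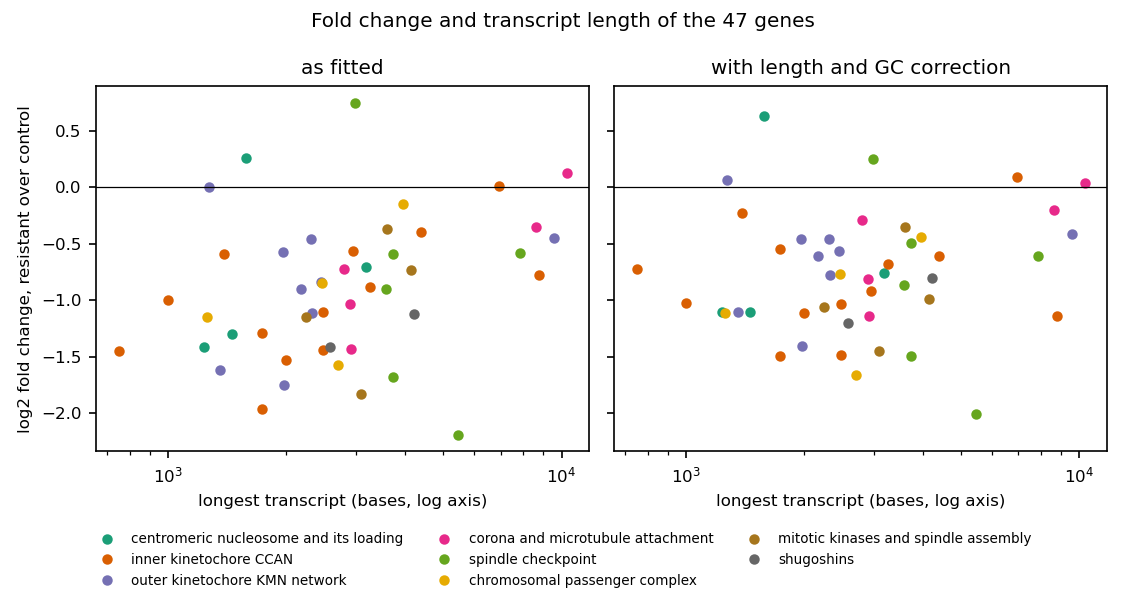
Log2 fold change of the 47 genes (resistant over control) against their longest transcript in bases (log axis), as fitted at left and with the length and GC correction at right, coloured by role group. At left the shortest genes lie lowest on the whole (r = 0.311), and at right the trend is flatter (r = 0.123).

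Counting near similar or overlapping genes touched some members. In 10 of the 47, more than 10% of exonic bases are shared with another gene, and 8 have a pseudogene named after them (CENPC, CENPI, CENPU, SKA2, BUB1, BUB3, AURKA and SGO1). Among the 31 members with neither, 28 fell, 16 of them by 2-fold or more, and the median log2 fold change was -1.03.

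Neighbouring machinery was read from lists drawn up with earlier results known, and is given by counts and medians beside the same over all genes (31.7% lower, 33% higher, median -0.0162). Of 15 other centromere and kinetochore genes 10 fell and 3 rose, with a median log2 fold change of -0.666. After correction for length and GC content it was -0.386. The lowest was ITGB3BP (-1.85), which encodes the CCAN subunit CENP-R, and the highest CENPB (0.70), which binds alpha satellite DNA. Of 22 genes of the anaphase-promoting complex, separase and checkpoint silencing 17 fell and 2 rose, with a median of -0.468, from PTTG1 (-1.28), the separase inhibitor securin, to FZR1 (0.57), the late mitotic activator CDH1. Of 30 centrosome and spindle pole genes 23 fell and 5 rose (median -0.454), from HAUS1 (-1.80), of the augmin complex, to NUMA1 (1.21), which tethers microtubules at the poles. Of 8 condensin genes 6 fell and 2 were not called (median -0.242), with NCAPG at -0.96. After that correction the condensin median was -0.529, and it was -0.0541 under total count scaling, with 3 genes lower and 1 higher in the latter. Total count scaling also brought the medians to -0.279 for the anaphase-promoting complex list and -0.265 for the centrosome list.

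Cohesin is the ring that holds sister chromatids. Of its 13 genes 7 rose and 3 fell, with a median of 0.299 (0.487 under total count scaling). After correction for length and GC content the median was 0.0535, with 6 genes higher and 5 lower. ESCO2, the acetyltransferase that locks cohesin in S phase, fell (-1.21), while the ring subunit STAG2 went from 300.1 and 287 CPM in control to 482 and 488 in resistant libraries (0.73).

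**Figure D5:**
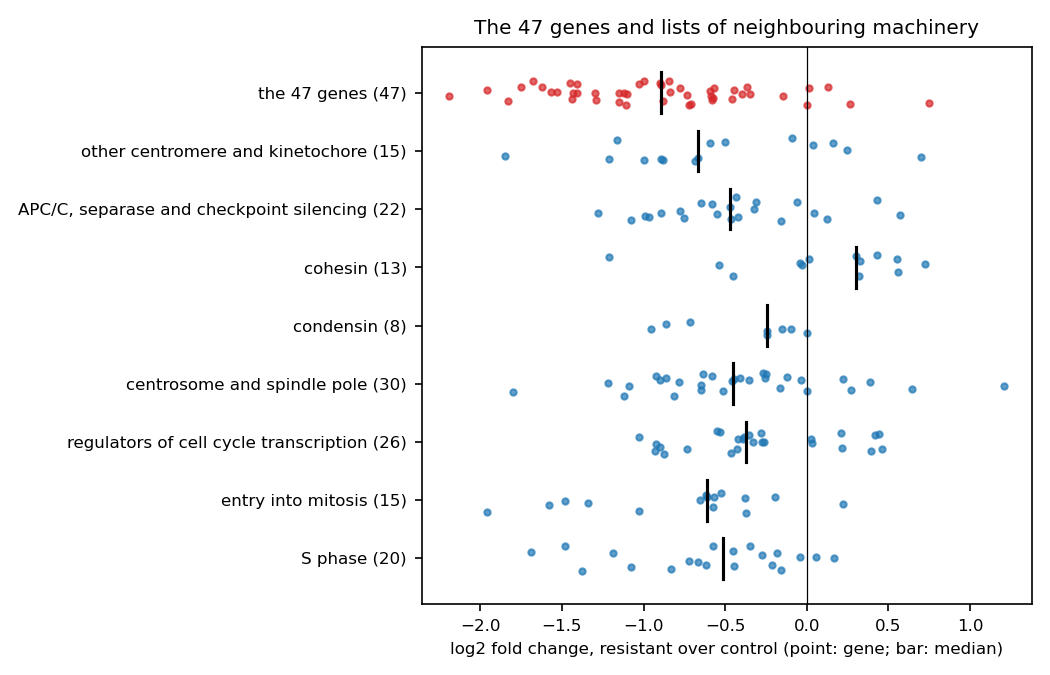
Log2 fold change (resistant over control) of the 47 genes and of each neighbouring list, a point per gene and a bar at the median. The median of the 47 genes is -0.896, that of the other centromere and kinetochore genes -0.666, and that of cohesin 0.299; with the length and GC correction they are -0.78, -0.386 and 0.0535.

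Transcription of late cell cycle genes is driven by B-MYB (MYBL2), the MuvB core and FOXM1, and held down by DREAM, in which p107 or p130 (RBL1 and RBL2) join the same core. Of 26 such regulators 17 fell and 6 rose, against 31.7% lower and 33% higher over all genes tested. Their median log2 fold change was -0.37 (-0.182 under total count scaling). MYBL2 was at 70.7 and 72.0 CPM in control and 38.1 and 37.2 in resistant libraries (-0.92), and LIN9, of the MuvB core, had -0.90. FOXM1 had -0.43, E2F1 -0.39, and the repressors E2F7 and E2F8 -1.03 and -0.93. RBL2 rose, from 126 and 122 CPM in control to 169.5 and 171 in resistant libraries (0.46), while RBL1 had -0.27. RB1 had 0.21 and CDKN1A, the inhibitor p21, 0.39. Also called higher were NFYA (0.44), NFYC (0.42) and TFDP2 (0.21), while NFYB was lower (-0.39), so the genes that rose were not only repressors or inhibitors. Whether any of these took part in the lower levels of the 47 genes was not tested.

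The labelled cell type was checked against markers. EPCAM, an epithelial adhesion protein, was at 96.6 and 90.8 CPM in control and 93.6 and 93.7 in resistant libraries, with overlapping groups. Of 6 fibroblast markers 5 had any count, with sums between 8.684 and 11.12 CPM in all libraries and COL1A2 at 0. The 5 endothelial markers summed to 4.782 and 4.312 in control and 3.65 and 3.136 CPM in resistant libraries. Most of that was VWF, while KDR had 0 and 1 counts in control and 24 and 13 in resistant libraries and was called higher (edgeR adjusted p = 0.000878). The 6 leukocyte markers summed to 0.7131 and 0.6771 CPM in control and 3.712 and 3.281 in resistant libraries, with CD3E at 0 throughout and nearly all of the rise in ITGAM. These sums lie far below the summed level of the 47 genes.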

How the data were processed

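RNA of 4 C4-2 libraries was counted per gene. The deposited files hold unnormalized read counts for each gene, which the authors made with STAR 2.5.2b and HTSeq on GRCh38 (hg38), per the submitters' processing notes; not given in the sources used here are the annotation release and the HTSeq version, mode and strand setting. Rows that name no gene (55.41% to 74.4% of records) were left out of library sizes and tests. Identifiers were matched without version to GENCODE 29, which named 56753 of 60483. Counts within each pair of replicates differed by more than sampling noise (chi-square per degree of freedom 5.67 in control, 2.38 in resistant). Each library was treated as 1 replicate, though this spread cannot show that the libraries came from separate cultures.

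All 4 libraries were fitted with group as the only term in edgeR 4.0.16 (R 4.3.3): filterByExpr at a minimum count of 10, TMM scaling, the quasi-likelihood F test with 2 residual degrees of freedom, and Benjamini-Hochberg adjustment over 20325 genes, calling genes at an adjusted p below 0.05. The standard error is the size of the log2 fold change over the square root of F. CPM per kb divides by the union of GENCODE 29 exons. The fit was tested on simulated data.

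All 47 genes are named; in each role group, the lowest and highest fold change, genes not called or higher, and the highest level per kb are given by library, as are some others chosen after their values were seen. From each list the called genes with the lowest and highest fold change are named, and any regulator. Members and lists were chosen with earlier results of these data known, and the choice of 30-base sites and partner pairs was made after values were seen. Alternatives were DESeq2 1.42.0, total count scaling, no filter, a filter of 1 CPM, protein-coding genes only, length and GC smooths (mgcv 1.9.3) as offsets, each library left out, the replicate block, and the motif window. Part of the luminal marker list is not reported here. The replicate numbers are not stated to pair the libraries.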

Additional observations from a re-analysis of the deposited data

How the results depend on the processing

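Of 564 values of a member under an alternative setting, 540 kept their direction and call, and the others belong to CENPC, PMF1, CENPF and INCENP. The number of members called lower was 41 or 42 throughout. The median log2 fold change of the members (-0.896) was -0.707 when scaled by total count, -0.8 with no filter, -0.944 with a filter of 1 CPM, -0.986 over protein-coding genes only, and -0.78 with the length and GC correction, with or without a replicate block; leaving out single libraries gave -0.903 to -0.879. Members called higher numbered 3 as fitted, 5 under total count scaling, and 2 with a filter of 1 CPM, over protein-coding genes only, with the length and GC correction (with or without the block) and without either resistant library; elsewhere they numbered 3. With 2 pairs the replicate numbers only share a number (r = -0.0989 over 13420 genes between the pairs' differences). The replicate block took INCENP (-0.14, edgeR adjusted p = 0.0567) out of the calls, leaving 41 of the 42.

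Directions reversed for small changes only. CENPC (0.02) was -0.031 with a filter of 1 CPM, -0.074 over protein-coding genes only and -0.014 to 0.062 with single libraries left out. PMF1 (-0.00105) was 0.0049 with DESeq2, 0.19 under total count scaling, 0.1 without a filter, 0.064 with the length and GC correction, 0.06 with that and the replicate block, and -0.073 to 0.089 with single libraries left out. INCENP was 0.043 under total count scaling. The cause was not tested. With 2 libraries per group, changes near the size of their SE were not detectable at this depth.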

Other observations

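The cell cycle genes around the kinetochore were lower as well, by different amounts. Of 15 genes of entry into mitosis 14 fell and 1 rose, with a median log2 fold change of -0.609, and 5 fell by 2-fold or more. Of all genes tested, 31.7% were lower, 33% were higher, and 10.1% were lower by 2-fold or more. CDK1, the kinase that drives entry, was at 507 and 496 CPM in control and 130.4 and 127 in resistant libraries (-1.96), close in size to CENPK. ENSA, a phosphatase inhibitor that acts with it, rose (0.22). MKI67, which encodes the proliferation antigen Ki-67 and was chosen after its values were seen, had -0.20, with 108 and 97.6 CPM in control and 85.7 and 93.3 in resistant libraries. Its groups did not overlap, but the gap between them was smaller than that between the control replicates.

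Of 20 S phase genes 17 fell and 1 rose, against 31.7% lower and 33% higher over all genes tested. Their median was -0.512 (-0.324 under total count scaling). GINS2, of the replicative helicase, had the lowest value (-1.69), and MCM2, of the same helicase, the highest (0.16). The call of MCM2 as higher was lost with a filter of 1 CPM, over protein-coding genes only and without resistant replicate 1.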
